A study of Mus musculus with 23 samples.

Results

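The response of the mouse olfactory epithelium to 1% TMT was measured in 8 of the 23 libraries of the series, 4 from mice exposed to 1% TMT and 4 controls, 1 of each from litters 1 to 4. Members were taken by their labelled treatment and litter, and each exposed library was set against the control of its own litter. TMT (trimethylthiazoline) is a volatile compound of fox secretions that mice avoid. All groups were C57BL/6 mice at postnatal day 21, exposed for 1 h, and the labels do not say what the controls were exposed to, how many mice a library holds, or their sex. RNA was recovered from olfactory epithelium homogenate with an antibody to phosphorylated ribosomal protein S6 (pS6, Cell Signaling 2215), in exposed and control mice alike, amplified as cDNA and made into libraries with the Illumina Nextera kit. The 4 libraries of 100% TMT from the same litters entered the statistical fit and are given beside the 1% values where the doses are compared. The remaining 11 libraries belong to another odor and were not used.

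A mature olfactory sensory neuron expresses a single odorant receptor gene chosen from a very large family. Odor binding to that receptor acts through a G protein, adenylyl cyclase and a cyclic nucleotide-gated channel to depolarise the cell, and S6 is then phosphorylated on the ribosomes of the active neuron. Precipitating pS6 therefore enriches the RNA of active cells, and a receptor transcript that is more abundant after exposure marks neurons that carry that receptor. The libraries are precipitates from whole-tissue homogenate, and none in the series is labelled as RNA taken before precipitation. A change in the number of cells of a type, in RNA per cell or in the part precipitated therefore cannot be told apart.

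Uniquely aligned reads assigned to genes summed to 2869995, 7479546, 9159460 and 9526932 in the 1% TMT libraries of litters 1 to 4, and to 4069851, 6403632, 7609265 and 6363750 in the controls. Values for litters are given in that order throughout, and CPM stands for the count of a gene relative to its library's total in the usual unit, after the totals had been scaled by edgeR's TMM method. Olfactory neurons were present in every library: the olfactory marker protein gene Omp had 327 to 475 CPM in 1% TMT and 226 to 415 CPM in control libraries. None of the 26 genes of the mature neuron and transduction list found in the files was at 0 in all 8 libraries, although a member could be at 0 in single libraries. The library codes in the titles change between litter 1 and litters 2 to 4, so a library series and a litter cannot be told apart. Values without litter 1 are printed where they matter.

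Olfr1395 was higher with 1% TMT and was the 1 gene that passed the test in the main fit. This odorant receptor gene lies on chromosome 11, at 49148259 to 49149212 (GRCm38, the build also called mm10). Its counts were 203, 232, 279 and 256 in the 1% TMT libraries and 32, 34, 17 and 17 in the controls. All 4 exposed libraries therefore stood above all 4 controls, although the 1% TMT library of litter 1 was the shallowest of the 8. Olfr1395 averaged 38.8 ± 19.1 CPM in 1% TMT and 4.35 ± 2.28 CPM in control libraries (SD, n = 4 each), an 8.9-fold difference. The log2 fold change was 3.19 (SE 0.31) and the adjusted p was 0.00524 in edgeR's quasi-likelihood test with litter as a block. The test covered 13233 genes, of which 1 passed an adjusted p of 0.05, or 0.00756%. Without the block the log2 fold change was 3.16 and the edgeR adjusted p was 0.105. With any 1 litter left out the log2 fold change was 2.98 to 3.39 and the edgeR adjusted p was 0.0736 to 0.232. With the 8 libraries fitted alone, without those of the higher dose, the edgeR adjusted p of Olfr1395 was 0.284. The edgeR call therefore needs all 4 litters and also the libraries of the higher dose in the fit. The size of the difference does not need all 4 litters.

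**Figure D1:**
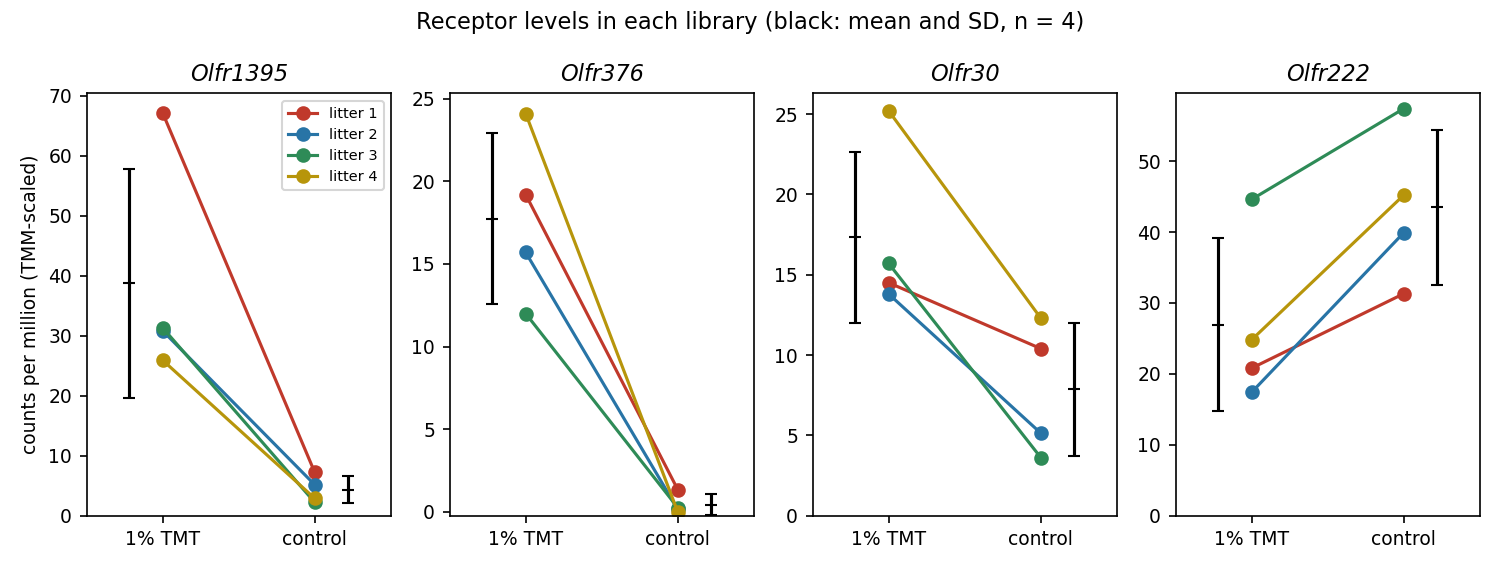
Levels of Olfr1395, Olfr376, Olfr30 and Olfr222 (CPM, linear axes) in each library, with 1% TMT left of control, a line joining the 2 libraries of a litter, and black bars for the mean and SD of each group. For the first 3 receptors the 4 exposed libraries lie above the 4 controls, and for Olfr222 every line runs the other way with overlapping groups.

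Measured against other receptors only, Olfr1395 also stood high after exposure. It took 2.65, 7.38, 6.64 and 3.8% of all receptor counts in the 1% TMT libraries and 0.649, 2.29, 0.618 and 0.822% in the controls. It ranked 1, 1, 3 and 2 among receptors by count in the 1% TMT libraries and 38, 7, 35 and 25 in the controls. This measure is relative to the receptor total, so it falls where other receptor transcripts rise. The 1% TMT library of litter 1 had the highest Olfr1395 level (67.1 CPM) but the lowest share among the exposed libraries.

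Olfr376, a receptor gene on the same chromosome (73371246 to 73375704), had the next smallest p-value but did not pass. It had 58, 118, 107 and 239 counts in the 1% TMT libraries and 6, 1, 2 and 0 in the controls. No control library came near the lowest exposed one. The means were 17.7 ± 5.17 CPM in 1% TMT and 0.44 ± 0.616 CPM in control libraries (SD, n = 4 each), and the log2 fold change was 5.61 (SE 0.76, edgeR adjusted p = 0.0712). The size of this fold rests on 9 control counts in all. DESeq2 called it (adjusted p = 8.7e-11), as did edgeR with no filter on low counts (adjusted p = 0.00677). Its share of receptor counts was 0.756, 3.75, 2.55 and 3.54% in the 1% TMT libraries and at most 0.122% in the controls.

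Olfr30 (chromosome 11, 58454915 to 58455980) was the third receptor whose groups did not overlap. Its counts were 44, 104, 140 and 250 in the 1% TMT libraries and 46, 34, 28 and 73 in the controls, where the litter 1 counts come from libraries of unlike depth. Scaled to depth these were 14.5, 13.8, 15.7 and 25.2 CPM in 1% TMT and 10.4, 5.14, 3.62 and 12.3 CPM in control libraries. The exposed values lie only just above the highest controls. The log2 fold change was 1.27 (SE 0.32, edgeR adjusted p = 0.577), and it was 0.40 when receptors were scaled to the receptor total alone. Groups did not overlap, with 1% TMT higher, in 3 of the 133 receptors tested (2.26%), against 0.937% of all genes tested. The opposite arrangement was seen in 0 receptors and in 1.35% of all genes. The filter on low counts could admit a receptor through exposed libraries alone, so these shares support no direction.

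The receptor genes encoded beside these 3 did not pass the test where they could be tested. Within 200 kb of Olfr376 lay 6 other receptor genes, none of which exceeded 13 counts in a 1% TMT library or 20 in a control. Within the same distance of Olfr30 lay 8, with at most 51 counts in 1% TMT and 36 in control libraries. Olfr1395 also had 8 such neighbours, of which 2 were tested. Olfr56, at 14.1 kb, had 65, 162, 246 and 68 counts in the 1% TMT libraries and 84, 21, 50 and 49 in the controls, with overlap between the groups (log2 fold change 1.21, edgeR adjusted p = 0.694). Olfr1396 had a log2 fold change of 1.61 (edgeR adjusted p = 0.851). The closest, Olfr1394 at 11.8 kb, had 0, 0, 0 and 12 counts in the 1% TMT libraries and 12, 0, 0 and 0 in the controls. At that gene exposed and control libraries each had reads in a single litter.

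Of the other receptors named by their p-values, none passed. Olfr531 had 71, 61, 135 and 84 counts in the 1% TMT libraries and 61, 9, 35 and 14 in the controls (log2 fold change 1.63, SE 0.51, edgeR adjusted p = 0.689). Its CPM was higher with 1% TMT in 4 of 4 litters, although the groups overlapped. Olfr1346 had 29, 40, 24 and 48 counts in the 1% TMT libraries and 19, 4, 1 and 0 in the controls (log2 fold change 3.17, SE 1.18, edgeR adjusted p = 0.694). Olfr220 had 30, 3, 1 and 56 counts in the 1% TMT libraries and 6, 0, 0 and 0 in the controls, so its value comes mainly from litters 1 and 4.

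In the lower direction Olfr222 was the receptor with the most counts. It had 63, 131, 398 and 246 counts in the 1% TMT libraries and 139, 264, 444 and 268 in the controls, and it was the receptor with the most counts in the controls of litters 2 to 4. Its CPM was lower with 1% TMT in 4 of 4 litters, with overlap between the groups, and averaged 26.9 ± 12.2 CPM in 1% TMT and 43.5 ± 10.9 CPM in control libraries (SD, n = 4 each). The log2 fold change was -0.74 (SE 0.35, edgeR adjusted p = 0.712). When receptors alone were fitted and scaled to their own total it was -1.60 and passed (edgeR adjusted p = 0.00468). That scaling lowered receptor values in general, with a receptor median of 0.02 against 0.85 in the main fit. Olfr524, Olfr1423 and Olfr455 had log2 fold changes of -3.55, -3.01 and -3.12 (edgeR adjusted p = 0.696, 0.744 and 0.767) on at most 52 counts in any of the 8 libraries.

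Receptor transcripts as a whole were a small and variable part of every library. They took 0.267, 0.042, 0.0459 and 0.0708% of all counts in the 1% TMT libraries and 0.121, 0.0232, 0.0362 and 0.0325% in the controls. The share was higher with 1% TMT in 4 of 4 litters, by 2.21, 1.82, 1.27 and 2.18 times. The means were 0.106 ± 0.108% in 1% TMT and 0.0532 ± 0.0456% in control libraries (SD, n = 4 each), and the difference did not pass an exact 2-sided permutation test (p = 0.457, smallest possible 0.0286). It was smaller than the SD among the 1% TMT libraries and slightly larger than that among the controls. An exact sign-flip test within litters gave 0.125, the smallest value that 4 litters allow. Litter 1 carried the highest share in both groups, and without it in both groups the ratio of means was 1.73 instead of 2. Without its 1% TMT library alone the ratio was 0.994, and without its control alone it was 3.48. Counting error was small beside this spread, as the 95% Wilson interval was 0.261 to 0.273% for the 1% TMT library of litter 1 and 0.118 to 0.125% for its control. Between 240 and 636 receptors had at least 1 count in a 1% TMT library and between 181 and 344 in a control, with no adjustment for depth, and the most were found in the shallowest library.

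**Figure D2:**
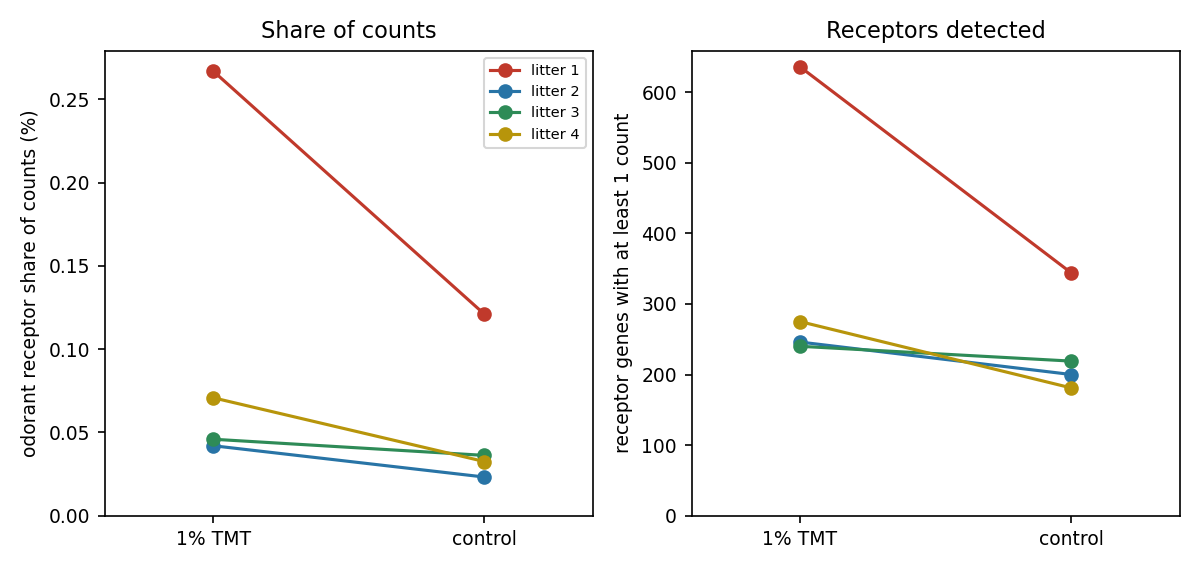
Percent of all counts on odorant receptor genes (left) and the number of receptor genes with at least 1 count (right) in each library, 1% TMT left of control, with a line joining the libraries of a litter. The exposed library is the higher one in all 4 litters in both plots, and litter 1 lies far above the other litters.

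Of 1102 receptor symbols, 781 had at least 1 count in the 8 libraries, 48 had a count in all 8, and 133 had enough counts to be tested. Olfr257 and Olfr285, both among the 133, had identical counts in every library and are 1 measurement. The filter let a receptor in through exposed libraries alone, and 48 of the 133 had at most 5 counts in every control of litters 2 to 4. The counts that follow describe that filtered set and support no direction. A log2 fold change above 0 was found in 96 of the 133, with a median of 0.85 against 0.03 over all genes tested. An unadjusted p under 0.05 was reached by 12 receptors in the higher direction (9.02%, against 4.90% of all genes) and by 1 in the lower direction (0.752%, against 2.26%). Fold changes over all genes were related to GC content (Spearman rho -0.35 across genes, which are not independent replicates), and receptor genes had a median GC content of 42.7% against 50.3% for all genes. After a GC and length correction the receptor median was 0.47, and Olfr1395 kept a log2 fold change of 2.96 (edgeR adjusted p = 0.0133).

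**Figure D3:**
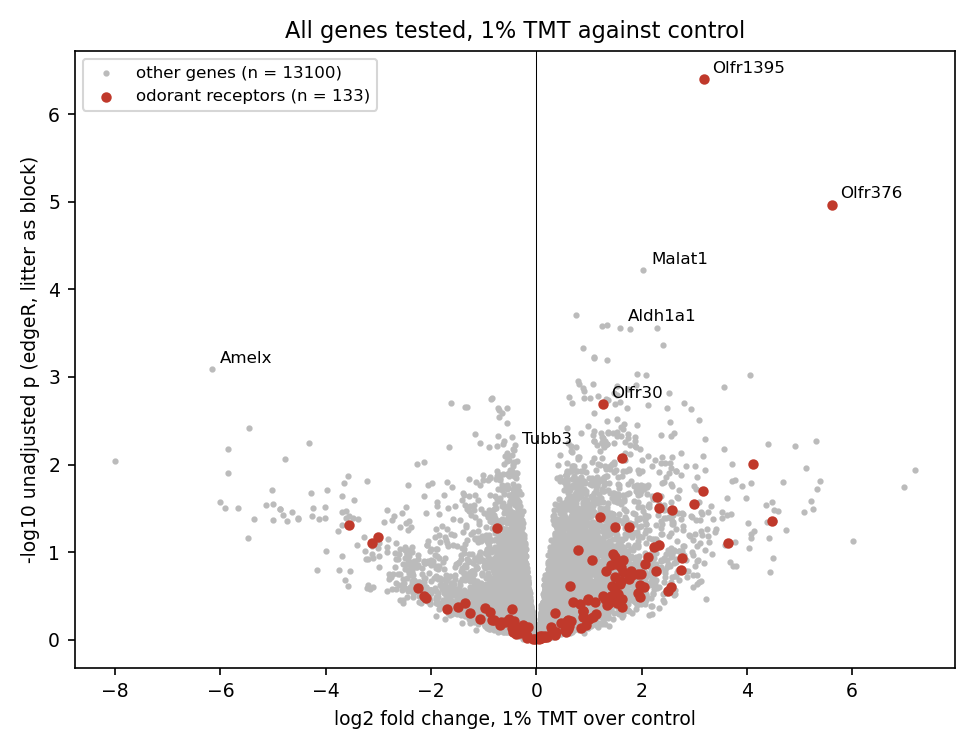
Log2 fold change (1% TMT over control) against -log10 of the unadjusted edgeR p for the 13233 genes tested, with the 133 odorant receptors in red. Olfr1395 has the smallest p, Olfr376 is next, and 96 of the receptors lie right of 0.

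The doses share the same 4 controls, so their comparisons with control are not independent. For Olfr1395 the log2 fold change against control was 3.19 at 1% and 2.63 at 100% (edgeR adjusted p = 0.00524 and 0.00603). In the 100% TMT libraries it had 101, 183, 51 and 159 counts. Its level was 67.1, 30.8, 31.3 and 25.9 CPM at 1% and 37.7, 27.4, 18 and 19.7 CPM at 100%, so it was lower at 100% in 4 of 4 litters. Olfr376 had 59, 87, 11 and 128 counts at 100%, with a log2 fold change of 5.61 at 1% and 5.04 at 100% (edgeR adjusted p = 0.0712 and 0.0143). Tested directly, the 100% minus 1% difference was -0.56 for Olfr1395 (SE 0.28, edgeR unadjusted p = 0.0707, adjusted p = 0.641) and -0.57 for Olfr376 (SE 0.58, edgeR adjusted p = 0.83). Neither difference passed the test.

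Olfr30 and Olfr96 had larger values at the higher dose. Olfr30 had a log2 fold change of 1.27 at 1% and 2.33 at 100%, and the difference of 1.05 (SE 0.31) had an edgeR adjusted p of 0.518. Olfr96 had 27, 5, 5 and 1 counts at 1%, 113, 78, 34 and 164 at 100%, and 2, 1, 2 and 5 in the controls. Few reads of Olfr96 were present at 1%, and its difference between doses was 3.93 (SE 0.85, edgeR adjusted p = 0.408). Against control, 10 receptors passed at 100%, namely Olfr1395, Olfr376, Olfr30, Olfr531, Olfr222, Olfr449, Olfr131, Olfr31, Olfr96 and Olfr350, and Olfr222 was the member that fell. These were 7.52% of the 133 receptors tested, against 2.37% of all genes (314 of 13233), on the same filtered set. For Olfr449, Olfr131, Olfr31, Olfr96 and Olfr350 the 1% log2 fold changes were 1.46 to 2.34 with edgeR adjusted p-values of 0.694 to 0.805. Over all genes 0 passed edgeR's test of the difference between doses, where 567 were higher and 501 lower at 100% with an unadjusted p under 0.05. The smallest adjusted p was 0.0646, for Nfil3, a transcription factor induced by activity in several tissues, with log2 fold changes of 0.33 at 1% and 1.45 at 100%.

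**Figure D4:**
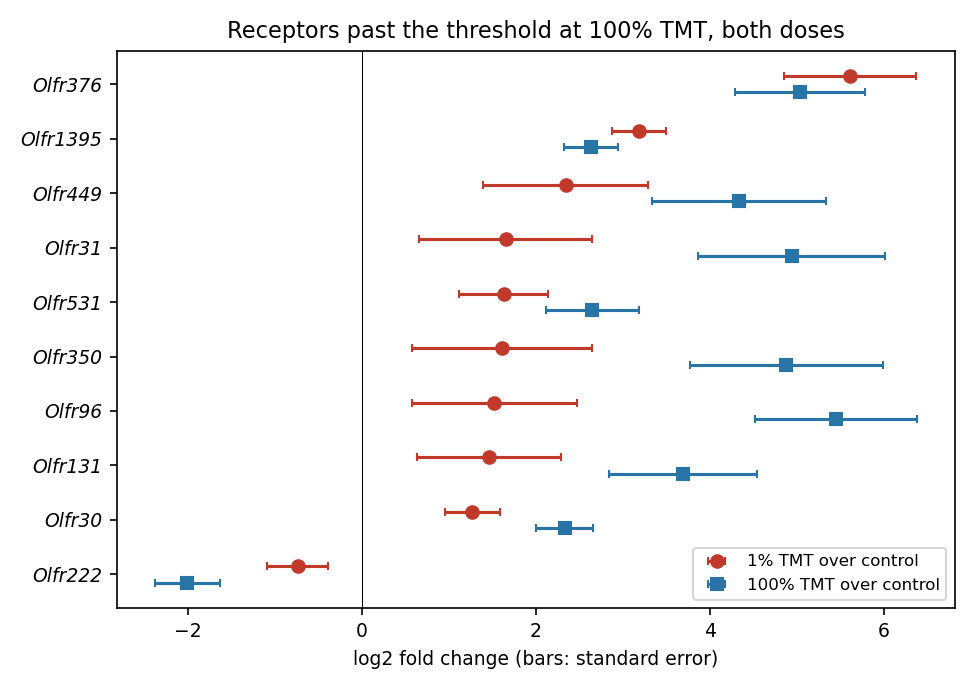
Log2 fold changes over the shared controls at 1% TMT (circles) and 100% TMT (squares), with bars of 1 SE, for the 10 receptors that passed at 100%. Olfr1395 and Olfr376 have higher values at 1% than at 100%, and the other 8 lie nearer 0 at 1%.

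Of the 10 genes tested from a list of activity-dependent genes of olfactory neurons, 0 passed in edgeR or DESeq2. At an unadjusted p under 0.05, 1 was higher (4.90% of all genes were). S100a5, whose calcium-binding product marks recently active olfactory neurons, had 1071, 17.8, 16.7 and 70.8 CPM in 1% TMT and 66.4, 15, 23.9 and 18.7 CPM in control libraries. The litter 1 exposed library stood alone, and the log2 fold change was 1.14 (SE 0.77, edgeR adjusted p = 0.819), or 0.21 without litter 1 and 3.25 without the litter block. The 3 highest S100a5 levels among the 12 libraries, in 1% TMT of litter 1 and 100% TMT of litters 1 and 4, belonged to the 3 libraries with the highest receptor share. S100a5 level and receptor share moved together in those libraries, and the part of either in the other was not tested. Pcdh10, an activity-dependent cell adhesion gene, was higher with 1% TMT in 4 of 4 litters with overlapping groups (log2 fold change 0.51, SE 0.24, edgeR adjusted p = 0.726). The median over the activity-dependent genes was 0.50, and 8 were above 0. The list was not split by the direction in which activity moves a gene, so these values do not measure activation. Lrrc3b, of that list, had 197, 43.6, 66.6 and 104 CPM in 1% TMT and 76.5, 32.5, 29.6 and 63.8 CPM in control libraries (log2 fold change 0.90, SE 0.22, edgeR adjusted p = 0.577).

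**Figure D5:**
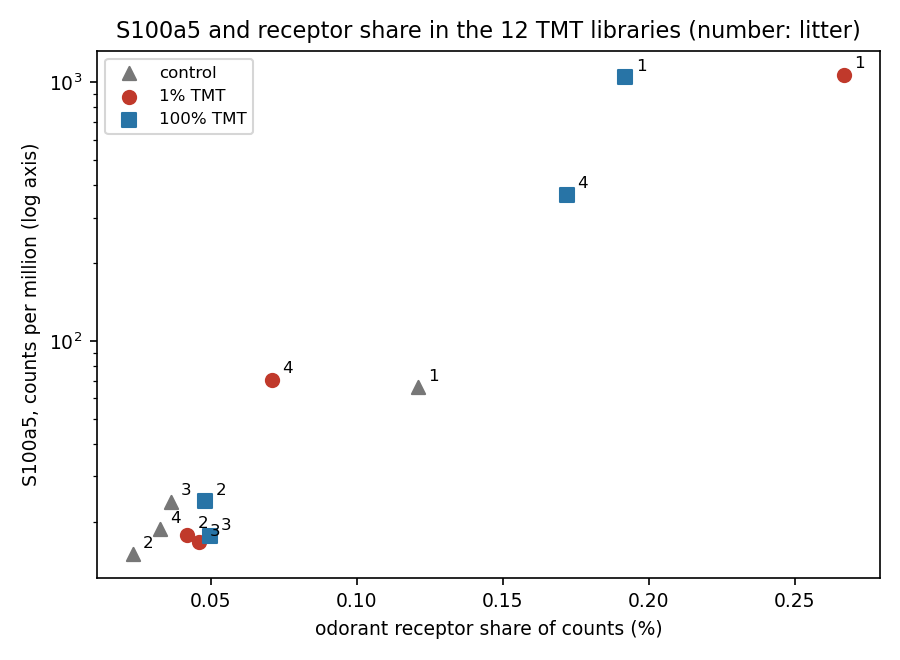
S100a5 level (CPM, log axis) plotted against the percent of counts on odorant receptors (linear axis) in the 12 libraries of the TMT experiment, with symbols for control, 1% and 100% TMT and numbers for litters. The litter 1 libraries of 1% and 100% TMT and the litter 4 library of 100% TMT lie apart at the top right.

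Immediate early genes, which are transcribed within minutes of stimulation, had a median log2 fold change of -0.01 over 28 tested, 14 of them above 0. By edgeR or DESeq2 0 of them passed, and an unadjusted p under 0.05 was reached by 3 in the higher direction and 0 in the lower, against 4.90% and 2.26% of all genes. Fos had 21.8, 50, 63.2 and 36.8 CPM in 1% TMT and 15.5, 36.3, 35.9 and 59.1 CPM in control libraries (log2 fold change 0.24, SE 0.40, edgeR adjusted p = 0.948), and it was -0.01 without litter 3. For Egr1 the log2 fold change was 0.33 (SE 0.31, edgeR adjusted p = 0.87). Neither gene separated the groups. Nr4a2, an orphan nuclear receptor of the same list, had 16.9, 38.3, 34 and 20.8 CPM in 1% TMT and 10.6, 44.2, 6.98 and 8.78 CPM in control libraries (log2 fold change 0.98, SE 0.44, edgeR adjusted p = 0.694).

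Genes of mature neurons and of odor transduction had a median of 0.23, with 18 of 25 above 0. In edgeR and DESeq2 0 passed, and an unadjusted p under 0.05 was reached by 3 in the higher direction and 1 in the lower, against 4.90% and 2.26% of all genes. Cnga2, which encodes the main subunit of the cyclic nucleotide-gated channel, had 390, 143, 125 and 282 CPM in 1% TMT and 338, 15.7, 69.9 and 98.4 CPM in control libraries (log2 fold change 1.27, SE 0.44, edgeR adjusted p = 0.689). Stoml3, a stomatin-like protein of olfactory cilia, was higher in 4 of 4 litters (log2 fold change 0.58, SE 0.16, edgeR adjusted p = 0.689). Adcy3, the adenylyl cyclase of the pathway, had 276 ± 53.5 CPM in 1% TMT and 270 ± 82.4 CPM in control libraries (SD, n = 4 each; log2 fold change 0.05, SE 0.18, edgeR adjusted p = 0.979). Omp had 390 ± 61.9 CPM in 1% TMT and 342 ± 89.8 CPM in control libraries (SD, n = 4 each; log2 fold change 0.20, SE 0.17, edgeR adjusted p = 0.861). The 25 members ranged from -0.39 for Pde4a to 1.35 for Pde1c, both phosphodiesterases that degrade cyclic nucleotides, and 7 were below 0.

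Genes of immature neurons had a median of -0.23, 3 of 20 were above 0, and 0 passed in edgeR or DESeq2. An unadjusted p under 0.05 was reached by 4 in the lower direction, against 2.26% of all genes, and 3 of these 4 were tubulins. Without the 4 tubulins of the list the median was -0.15 and 1 of the other 16 reached that p. The summed level of the list was 7151 to 9880 CPM in 1% TMT and 8671 to 11765 CPM in control libraries, most of it from Tubb5, a beta-tubulin. Without Tubb5 the sums were 2636, 2882, 3775 and 3452 CPM in 1% TMT and 3732, 3297, 4318 and 2970 CPM in control libraries, lower with 1% TMT in 3 of 4 litters. Tubb3, the neuronal beta-tubulin, had 323, 349, 422 and 365 CPM in 1% TMT and 454, 509, 554 and 448 CPM in control libraries. Its groups did not overlap, as in 1.35% of all genes in that direction, but it did not pass (log2 fold change -0.43, SE 0.13, edgeR adjusted p = 0.689). The tubulin list as a whole had a median of -0.30, with 3 of 17 above 0, and shares 4 genes with the immature list (Tubb3, Tubb2b, Tubb5 and Tuba1a). Cytosolic ribosomal protein genes had a median of -0.14, and their sum was lower in 4 of 4 litters, at 9837 to 15617 CPM in 1% TMT and 12814 to 17909 CPM in control libraries. Gap43, a growth cone protein of immature neurons, had 872 ± 175 CPM in 1% TMT and 975 ± 182 CPM in control libraries (SD, n = 4 each; log2 fold change -0.16, SE 0.15, edgeR adjusted p = 0.873).

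Beside the receptors, the 10 highest-placed genes by p-value did not pass in edgeR, with adjusted p-values from 0.269 to 0.577. All 10 were higher with 1% TMT in 4 of 4 litters, against 8.91% of all genes tested. Their choice by p-value with litter as a block favours such agreement, so it is no separate evidence. DESeq2 called all 10, with adjusted p-values of 1.6e-05 for Malat1 to 0.0121 for Ren2, and 53 genes in all. It was run on the same counts, so its calls for genes chosen by p-value are no separate evidence either. Malat1, a nuclear long non-coding RNA, had 83.3, 13.4, 18.2 and 46.2 CPM in 1% TMT and 28.6, 1.81, 3.49 and 13.2 CPM in control libraries (log2 fold change 2.03, SE 0.33, edgeR adjusted p = 0.269). Slc12a2, the sodium-potassium-chloride cotransporter with which olfactory neurons load chloride, had 44.6, 8.89, 11 and 13.5 CPM in 1% TMT and 12.8, 1.51, 1.42 and 3.04 CPM in control libraries (log2 fold change 2.30, SE 0.45, edgeR adjusted p = 0.417). Litter 1 was high in both groups for either gene, so the groups overlapped although 1% TMT was above control within each litter.

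Aldh1a1, a retinaldehyde dehydrogenase, had 205, 42.8, 49.9 and 89.6 CPM in 1% TMT and 56.3, 8.01, 22.7 and 42.5 CPM in control libraries (log2 fold change 1.59, SE 0.31, edgeR adjusted p = 0.417). Klhl15, an adaptor of a ubiquitin ligase, was the one of the 10 whose groups did not overlap, at 53.0 ± 17.9 CPM in 1% TMT and 21.2 ± 8.19 CPM in control libraries (SD, n = 4 each; log2 fold change 1.34, SE 0.26, edgeR adjusted p = 0.417). Choosing the 10 by p-value favours such separation, which 0.937% of all genes tested had in that direction. The others were Sptan1 (alpha-spectrin, log2 fold change 0.75), Zc3h14 (a poly(A)-binding protein, 1.25), Vps54 (a vesicle tethering subunit, 1.78), Ufl1 (the UFM1 ligase, 2.41), Acsl5 (an acyl-CoA synthetase, 0.88) and Ren2 (a renin, 1.09). Ren2 and its near-identical copy Ren1 had almost the same counts in every library and are 1 measurement.

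The 10 genes lowest in the same order had edgeR adjusted p-values of 0.577 to 0.61, and DESeq2 called Rcan2 and Prmt6 among them. Rcan2, a regulator of calcineurin, had 9.59, 4.51, 5.38 and 5.76 CPM in 1% TMT and 17.3, 11, 36.7 and 16.9 CPM in control libraries (log2 fold change -1.62, SE 0.41, edgeR adjusted p = 0.577). Prmt6, an arginine methyltransferase, had 11.6, 24.5, 12.4 and 33.8 CPM in 1% TMT and 39.2, 61.5, 46.9 and 51.5 CPM in control libraries (log2 fold change -1.32, SE 0.34, edgeR adjusted p = 0.577). For both genes all 4 exposed libraries were below all 4 controls, as they also were for Amdhd2 (-0.85), Zfp407 (-1.36), Myl9 (-0.55), Ints10 (-0.70) and Nfix (-0.66). Among all genes tested 1.35% had this arrangement, and choosing these 10 genes by p-value favours it. Chaf1b, a histone chaperone subunit (-0.86), and Eva1b (-0.72) overlapped. Amelx, which encodes the enamel protein amelogenin, had 0, 72, 0 and 4 counts in the 1% TMT libraries and 40, 8273, 0 and 13 in the controls, so its log2 fold change of -6.17 rests on the control of litter 2. Ambn, another enamel gene, had 0, 35, 0 and 136 counts in the 1% TMT libraries and 25, 986, 0 and 0 in the controls.

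Of the markers of the other cells of the tissue, 0 passed in edgeR or DESeq2. At an unadjusted p under 0.05 there were 4 higher and 2 lower sustentacular markers, and at most 3 genes in either direction in any other cell list. Over all genes the shares were 4.90% higher and 2.26% lower. Sustentacular cell markers had a median of 0.40 (14 of 18 above 0) and summed to 13197 to 17578 CPM in 1% TMT and 14085 to 16131 CPM in control libraries. Bowman gland and nasal secretory markers had a median of 0.10 (17 of 26) and sums of 82264 to 128077 CPM in 1% TMT and 66092 to 178102 CPM in control libraries. Red cell genes had a median of 0.58 (8 of 8, some of which are identical copies) and summed to 4601 to 31473 CPM in 1% TMT and 6700 to 12853 CPM in control libraries, with litter 2 of 1% TMT highest.

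Medians were 0.08 for ensheathing glia (6 of 12 above 0), 0.06 for immune cells (10 of 17), -0.02 for horizontal basal cells (5 of 10), -0.17 for microvillar cells (3 of 8) and -0.09 for respiratory ciliated cells (4 of 11). They were -0.30 for endothelium (4 of 9), 0.17 for fibroblast, cartilage and bone genes (11 of 16), 0.07 for skeletal muscle (5 of 9) and -0.10 for vomeronasal neurons (0 of 5). The part of cell makeup in the receptor result was not tested.

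Stress-related and other lists likewise held 0 genes past the threshold in edgeR, with at most 4 in any list at an unadjusted p under 0.05 in either direction (4.90% of all genes higher, 2.26% lower). DESeq2 called Asns (adjusted p = 0.0255) and Aldh1a1, a member of the xenobiotic list. Medians were 0.03 for amino acid response genes (12 of 23 above 0), 0.24 for chaperones (12 of 21), 0.15 for xenobiotic and oxidative stress genes (15 of 22), 0.46 for interferon-induced genes (9 of 15) and 0.08 for clock genes (8 of 15). Asns, the asparagine synthetase gene that the factor ATF4 induces, had 375, 279, 156 and 253 CPM in 1% TMT and 160, 105, 92.3 and 229 CPM in control libraries (log2 fold change 0.88, SE 0.21, edgeR adjusted p = 0.577). Hsp90b1, an endoplasmic reticulum chaperone, had 826, 162, 193 and 207 CPM in 1% TMT and 92.5, 111, 114 and 124 CPM in control libraries (log2 fold change 1.25, SE 0.43, edgeR adjusted p = 0.689). Its groups did not overlap, as in 0.937% of all genes in that direction. Progenitor and cell division genes had a median of 0.19 (12 of 20 above 0), histones -0.29 (4 of 12) and protocadherins -0.12 (16 of 40). Several Pcdha genes among the protocadherins had the same counts in some libraries and are not separate measurements. Pcdha5, Pcdha8 and Pcdha12 each had 73 in 1% TMT of litter 4, and 32 and 43 in the controls of litters 3 and 4. None of the 15 trace amine-associated receptors, a second family of olfactory receptors, had enough counts to be tested, and together they reached 1.06 to 6.94 CPM in 1% TMT and 1.01 to 11.5 CPM in control libraries. Of the vomeronasal receptor genes, 1 of 327 was tested and did not pass.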

How the data were processed

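The authors' deposited files list gene symbols with whole-number counts in the first value column, read here from the values as uniquely aligned reads, and estimated counts in the last, which also take in reads with several alignments. Per the submitters' processing notes, Bowtie, bedtools and the mm10 build were used. For the versions and the gene annotation, the sources used here give nothing. Unique counts were 51.2 to 65.2% of the deposited estimated counts, which lowers genes with near-identical copies. Reads carry no stated strand, so overlapping genes cannot be told apart. Coordinates are RefSeq's for GRCm38.p6, matched by symbol.

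The 12 TMT-experiment libraries were fitted together in edgeR 4.0.16 (R 4.3.3) with TMM scaling, a filterByExpr minimum count of 10, litter as a block, and quasi-likelihood tests with Benjamini-Hochberg adjustment over all 13233 genes. An SE is the log2 fold change divided by the square root of its F statistic. A fold of CPM means is a ratio of the unmodelled means. The labels give litter, so litter numbers pair libraries. Across genes, deviations of same-litter libraries correlated at 0.341, 0.208, 0.0232 and 0.0177 for litters 1 to 4. Another litter correlated more in litters 3 (0.127) and 4 (0.0621). Nothing says that libraries are separate animals beyond litter, so p-values measure the spread between these libraries. On simulated counts with known changes for this comparison (13233 genes), 71% of changes of log2 size 2 and 88% of size 3 were recovered, with 9 false calls. The changed genes were drawn only from better-expressed genes, and no litter effect was simulated. Recovery for low-count receptors was therefore not measured. Alternatives were DESeq2 1.42.0, RLE scaling, no block, no low-count filter, the 8 libraries alone, estimated counts rounded to whole numbers, a GC and length correction, receptors only, and leaving out each library or litter.

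Named genes were the 10 other genes, and the 6 (higher) or 4 (lower) receptors, with the smallest p-values in each direction, any receptor past the threshold, and 10 fixed genes of receptors, activity and neurons. Receptors named at 100% are those past the threshold there. Neighbouring receptors and the other list members printed (Lrrc3b, Pde4a, Pde1c, Tubb5, Nr4a2, Cnga2, Stoml3, Adcy3, Gap43, Asns, Hsp90b1, Ambn, Ren1) were chosen after their values were seen. The members and lists were chosen with earlier results of these data known. Wilson 95% intervals cover counting error only, as PCR duplicates could not be told from separate molecules.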

Additional observations from a re-analysis of the deposited data

Results flagged for a closer look

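In 16 of 76 groups of 4 libraries, the highest or lowest library stood apart from the other 3 by more than Dixon's 95% critical value. Chance gives about 1 in 20 for normally distributed values. Some groups were mostly 0, such as Olfr220 in the controls (1.35, 0, 0 and 0 CPM), so that rate is no measure for them. Since libraries recur across genes, the 16 groups are also not independent. Most involve litter 1, whose library series differs from that of litters 2 to 4.

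Among the 1% TMT libraries, litter 1 was apart in receptor share (0.267%), Olfr1395 (67.1 CPM), S100a5 (1071 CPM), Sptan1 (555 CPM), Slc12a2 (44.6 CPM), Olfr524 (2.97 CPM) and Olfr1423 (3.64 CPM). Litter 2 was apart in Ren2 (145 CPM) and Amelx (9.55 CPM), and litter 4 in Olfr30 (25.2 CPM). Among the controls, litter 1 was apart in receptor share (0.121%), Sptan1 (344 CPM), Slc12a2 (12.8 CPM), Olfr220 (1.35 CPM) and Olfr1346 (4.28 CPM), and litter 2 in Amelx (1251 CPM). All of these were high values. For receptor share, Sptan1 and Slc12a2 the litter 1 library was apart in both groups.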

How the results depend on the processing

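The number of genes past the threshold was 1 and depended on the fit. It was 0 without the replicate block (litter) and 0 with the 8 libraries alone (edgeR adjusted p of Olfr1395 0.105 and 0.284). With no block, 389 genes in the higher direction and 179 in the lower had an unadjusted p under 0.05. DESeq2 called 53 (47 higher, 6 lower), with Olfr1395 at an adjusted p of 2.44e-17. No filter on low counts gave 3, namely Olfr1395, Olfr376 and BC048679, which had 0, 3937, 2 and 37 counts in the 1% TMT libraries and 0, 15, 0 and 0 in the controls. Receptors alone, scaled to their own counts, gave 3 (Olfr1395, Olfr376 and Olfr222). RLE scaling, estimated counts and the GC and length correction each gave 1, Olfr1395.

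Leaving out 1 library or litter gave 0 to 1. The call was lost without any 1 litter and without the litter 1 1% TMT library or the control of litter 1 or 4 (edgeR adjusted p of Olfr1395 0.0958, 0.0614 and 0.0506). Its log2 fold change was 2.30 to 3.39 in every setting run. That of Olfr376 was 5.06 to 6.58 (adjusted p 8.7e-11 to 0.512) and that of Olfr30 0.40 to 1.49 (0.0533 to 0.999). The ratio of receptor shares, 2 with all libraries, was 0.994 to 3.48 with 1 library or litter left out. The log2 fold change of Fos was -0.01 without litter 3, -0.15 without its 1% TMT library, and up to 0.69 without other libraries. The test between the doses called 0 with and without the block. Over 37 genes and their settings, 680 of 707 values kept direction and side of the threshold, 16 newly passed, 9 no longer passed and 2 changed sign. The cause of these changes was not tested. Low counts limit the receptor values: 89 of the 133 tested had no count in at least 1 of the 8 libraries.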
